A study of Mus musculus with 9 samples.

Results

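Integrins are the cell surface receptors through which cells hold on to extracellular matrix and to each other, and 10 of their chains were examined here, the alpha chains Itga4, Itga5, Itga6, Itga7, Itgav and Itgam and the beta chains Itgb1, Itgb2, Itgb3 and Itgb5. Their transcripts were measured in mice, on 1 Affymetrix array per sample, in alveolar rhabdomyosarcoma (6 tumours) and in wild-type skeletal muscle (3 samples). Every probe set was included whose only gene symbol in the platform annotation was that of a member, which gave 24 probe sets for the 10 genes, out of 22626 probe sets for all genes and 12393 named genes. This cancer grows in soft tissue, and its cells carry marks of the muscle lineage. The labels describe the tumours by their diagnosis alone and the muscles as wild-type controls. The tumours' genotype, the strain, age and muscle sampled, and whether arrays came from separate animals were not stated, so p-values measure only the spread between these samples, which may be technical. Signals are MAS5 intensities in arbitrary units after every array was brought to the same trimmed mean.

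Each integrin is a pair of 1 alpha and 1 beta chain, and the pair decides which ligand is bound. Muscle fibres attach to laminin of the basement membrane mainly through Itga7 paired with Itgb1, while proliferating myoblasts also use Itga6, Itga5 and Itga4 with Itgb1 to bind laminin, fibronectin and the adhesion molecule Vcam1. Itgav pairs with Itgb3, Itgb5 and other beta chains to bind vitronectin and other ligands. Itgb2 is made by leukocytes, where it pairs with Itgal, Itgam or Itgax.

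The labelled tissues were first compared with marker genes. All 8 measured adult muscle markers were lower in tumours, and of 8 myoblast markers 1, Ncam1, was higher and 1, Des, was lower. By the same test, given below, 8.66% of all genes were higher and 9.09% lower. The myoblast counts are therefore near that background and say little about the tissue. The 8 adult muscle markers had a summed signal of 148110 to 211540 in muscles and of 966 to 68123 in tumours, with tumour 1 the highest. Tumour 1 and tumour 4 also stood apart in the hybridisation control cre, whose 3' probe set read 32500 and 26648 there against 5345 to 13348 on the other arrays. Of the controls read by a 3' and a 5' probe set, Gapdh was higher by the 3' one 57.2-fold in muscle 2, 33.0-fold in muscle 3, 1.68-fold in muscle 1 and 1.93-fold to 9.39-fold in tumours. Actb did not set muscles 2 and 3 apart, at 4.06-fold and 4.35-fold against 3.35-fold to 6.78-fold in tumours and 1.87-fold in muscle 1. The part of these differences in the results was not tested. Muscle 1 and muscle 3 had been deposited on a lower scale and were multiplied by 1.6995 and 3.5493. In bulk tissue, fewer cells of a type and less RNA per cell cannot be told apart.

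Of the 10 integrin genes, 1 rose in tumours, Itgb2, and 9 did not pass the test (limma on log2(signal + 16), Benjamini-Hochberg adjusted p under 0.05 over all 12393 genes). Over all genes 17.8% were called, 8.66% as higher and 9.09% as lower, so a count of 1 in 10 does not exceed that background. The median difference of the 10 genes, tumour minus muscle, was -0.11 on the log2 scale, against 0.10 over all genes. Without tumour 2 a second gene was called, Itga5. Without the rescaling of the muscle arrays 3 members were called, all higher, while the median of all genes moved from 0.10 to 0.79 and 2373 genes were called higher and 369 lower, in place of 1073 and 1127. For 1 of the 10 genes, Itgb2, the groups did not overlap, against 21.6% of all genes (10.7% with tumours above, 11% with muscles above). Of the 24 probe sets 1 was called, against 15.4% of all probe sets (7.88% higher and 7.53% lower). In 2 of the 24 every tumour lay above every muscle and in 0 every tumour lay below, where 19.8% of all probe sets did not overlap (10.1% above and 9.7% below).

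**Figure D1:**
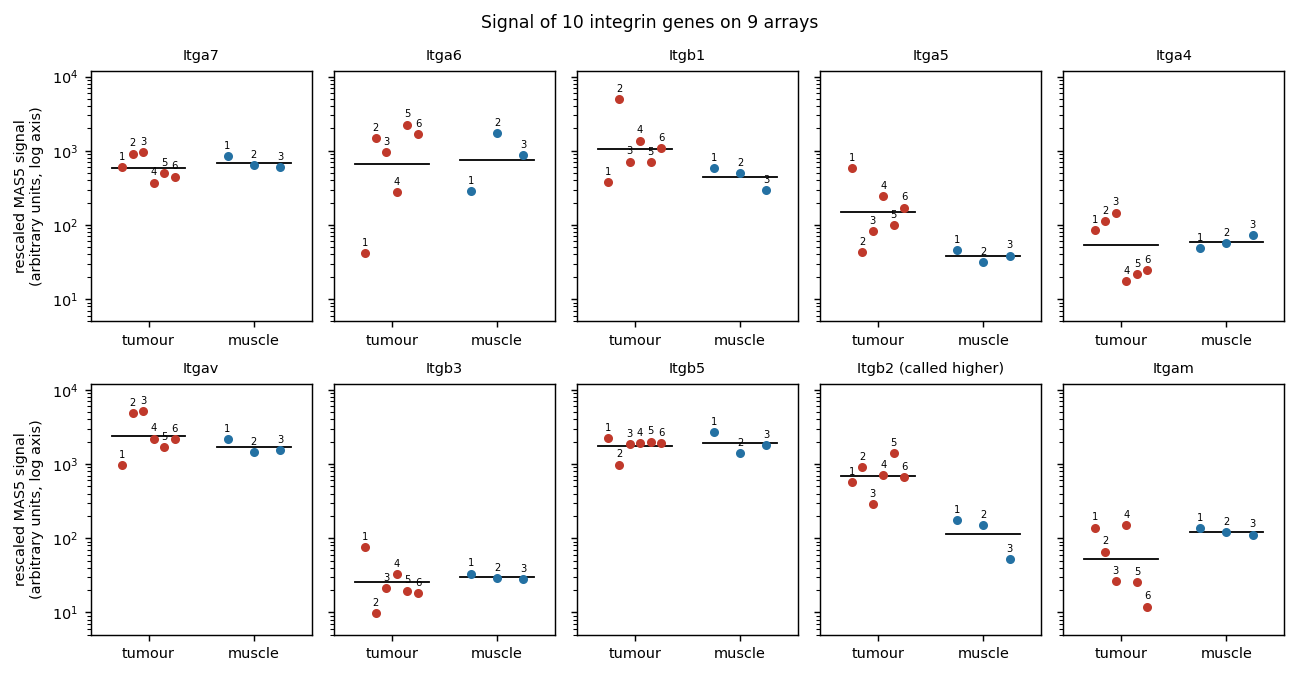
Rescaled MAS5 signal (arbitrary units, log axis) of the 10 integrin genes, each by its probe set of highest mean, in 6 tumours (red) and 3 muscles (blue). Numbers give the replicate and black lines the group mean taken on the log2(signal + 16) scale. For Itgb2 all 6 tumours lie above all 3 muscles, while for the other 9 genes the groups overlap.

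Itgb2, the beta chain of the leukocyte integrins, had signals of 287 at the lowest, 684 at the median and 1402.5 at the highest of the 6 tumours, and of 176.5, 150.7 and 52.8 in muscles 1 to 3. Every tumour lay above every muscle, and muscle 3 was the lowest array. All 6 tumours were above the median signal of their array and all 3 muscles below it, so the muscle level is a dim one. Tumours averaged 754 ± 375 (SD, n = 6) and muscles 127 ± 65.2 (SD, n = 3), a difference of 2.42 ± 0.49 (log2 ± SE) or 5.34-fold, with a limma adjusted p of 0.0036. Tumour 5 was the highest and tumour 3 the lowest of the tumours. The call held when any 1 array was left out, with differences of 1.96 to 2.70, and also without tumours 1 and 4 together.

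The alpha partners of Itgb2 did not follow it evenly. Itgam, the alpha chain of the macrophage and neutrophil integrin Mac-1, had signals of 12.0, 46.0 and 151 at the lowest, median and highest tumour and of 137, 120.3 and 112 in muscles 1 to 3. Tumours 1 and 4 lay above all muscles and the other 4 tumours below all of them, and all 9 signals were under the median of their array. Its difference of -1.01 ± 0.58 (log2 ± SE) did not pass the test (limma adjusted p = 0.28). Without tumours 1 and 4, the arrays with the bright cre control, it was called lower, at -1.63 with an adjusted p of 0.018. Itgax, the alpha chain typical of dendritic cells and some macrophages, rose in tumours. Its signals ran from 330 through 531 to 694 in tumours and were 235.7, 99.4 and 62.5 in muscles 1 to 3, with no overlap. The difference was 2.00 ± 0.44 (log2 ± SE), or 3.99-fold, with a limma adjusted p of 0.0059. That call was lost without muscle 3, at an adjusted p of 0.056. Itgal, the alpha chain of the lymphocyte integrin LFA-1, had signals of 42.8 to 225 in tumours and 44.6 to 109 in muscles, and its difference of 0.53 ± 0.49 did not pass (limma adjusted p = 0.55).

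Among leukocyte markers, those of macrophages were higher in tumours. Of 11 macrophage markers 9 were higher and 0 lower, where 8.66% of all genes were called higher, and their summed signal was 10508 to 41635 in tumours and 3293 to 4850 in muscles. The marker of highest tumour median was Csf1r, the receptor for macrophage growth factor, which rose 6.25-fold, and that of lowest tumour median was Aif1, at 309 in tumours and 61.2 in muscles. The tumours did not stand in the same order as for Itgb2, since tumour 1 had the highest marker sum and tumour 6 the lowest. Of 9 neutrophil markers 2 were higher (S100a8 and Mmp9), or 22.2% against 17.8% of all genes called, with a sum of 1166 to 7183 in tumours and 1251 to 2069 in muscles. Of 5 markers of natural killer cells 1 was higher, Gzmb, with a sum of 747 to 1543 in tumours and 464 to 896 in muscles. Of 8 T cell and 5 B cell markers 0 were called by limma, and 0 had an unadjusted p under 0.05. The summed T cell signal was 608 to 2933 in tumours and 1378 to 1911 in muscles, and the B cell sum 456 to 1935 and 741 to 1182. By tumour median the T cell markers ran from Cd3d at 12.2 to Thy1 at 566, where the muscle medians were 23.1 and 919. Thy1 was also on the list of fibroblast markers used below, so its signal enters both sums. The T cell sum therefore does not stand for T cells alone. Of these markers 4 T cell genes and 1 B cell gene were below the array median on all 9 arrays. The part of leukocyte numbers in the integrin values was not tested.

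**Figure D2:**
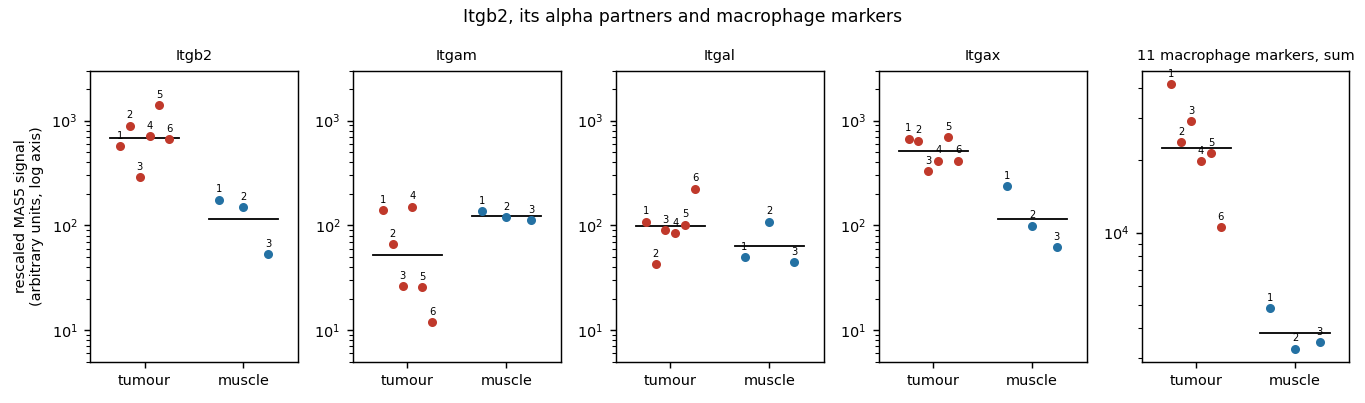
Rescaled MAS5 signal (arbitrary units, log axis) of Itgb2 and its alpha partners Itgam, Itgal and Itgax, with the summed signal of 11 macrophage markers on its own axis at the right. Points are arrays, numbered by replicate, and lines are group means on the log2(signal + 16) scale; tumours and muscles do not overlap for Itgb2, Itgax and the marker sum, and overlap for Itgam and Itgal.

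Itgam and Itgax lie near each other on mouse chromosome 7, and their promoters are shown as those of 2 alpha partners of Itgb2, 1 not called and 1 called. The 250 bases before each start site were taken from RefSeq's GRCm38.p6 annotation and cover chr7:128062390-128062639 for Itgam and chr7:128129300-128129549 for Itgax, both on the plus strand. Capitals mark GAGGAA or its reverse complement, the core bound by the myeloid factor PU.1, which was searched on both strands with overlaps allowed.
Itgam: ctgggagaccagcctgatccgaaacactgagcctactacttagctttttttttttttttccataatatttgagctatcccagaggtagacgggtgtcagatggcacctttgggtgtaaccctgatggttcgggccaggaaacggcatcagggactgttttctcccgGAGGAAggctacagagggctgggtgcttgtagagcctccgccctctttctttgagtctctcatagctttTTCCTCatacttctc
Itgax: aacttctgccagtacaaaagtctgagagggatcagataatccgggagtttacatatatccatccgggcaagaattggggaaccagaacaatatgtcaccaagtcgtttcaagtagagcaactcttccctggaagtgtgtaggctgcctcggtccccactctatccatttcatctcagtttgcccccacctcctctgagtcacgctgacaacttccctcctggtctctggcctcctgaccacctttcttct
Itgam holds 2 matches, beginning 84 and 15 bases before the start site, and these letters are not in the Itgax window. The motif is in 23.3% of 32851 promoter windows of the same length. Promoters of 6 of the 10 integrins were in the table, and 3 others of these, Itga5, Itgav and Itgb1, also hold it. A match is a description of the letters only.

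The laminin-binding alpha chains showed no difference that passed the test. Itga7, the principal laminin receptor chain of muscle fibres, had signals of 371, 546 and 967 at the lowest, median and highest tumour and of 839, 643 and 607 in muscles 1 to 3. Tumours 2 and 3 lay above all muscles and the other 4 below all of them. The means were 632 ± 251 (SD, n = 6) and 696 ± 125 (SD, n = 3), and the difference of -0.21 ± 0.37 (log2 ± SE) was smaller than its error (limma adjusted p = 0.79). Itga6, which binds laminin with Itgb1 or Itgb4, spanned the widest range. Its probe set of highest mean read 41.5 in tumour 1, 277 in tumour 4, 954 in tumour 3, 1481 in tumour 2, 1665 in tumour 6 and 2247 in tumour 5. The muscles read 287, 1724 and 864, inside the range of the tumours. The tumours' SD was 2.02 on the log2 scale, larger than that of 99.4% of all genes, whose median was 0.70. The second probe set was also lowest in tumour 1 (161.5) and highest in tumour 5 (997), with muscles at 437, 819 and 618. Its tumour SD was smaller, at 0.91. On both probe sets tumours 1 and 4, the arrays with the bright cre control, were the lowest of the tumours. Muscle 1 was the lowest of the muscles on both, and its cre signal was 5483. The 3' to 5' ratio of Gapdh was 1.68 in muscle 1, 1.93 in tumour 4 and 6.04 in tumour 1. The part of either control in the Itga6 values was not tested. The difference of Itga6 was -0.20 ± 0.96 (log2 ± SE, limma adjusted p = 0.93), and without tumour 1 it was 0.51, so that neither size nor sign is settled.

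Itgb1 is the common beta partner of Itga4, Itga5, Itga6 and Itga7. Its probe set of highest mean read 381, 904 and 4912 at the lowest, median and highest tumour and 588, 496 and 297 in muscles 1 to 3. Tumour 2 was the highest, with the other 5 at no more than 1365, and 5 of the 6 tumours were above all muscles. A second probe set also placed tumour 2 highest, at 3573, with the rest of the tumours at 357 to 851 and muscles at 263 to 360.1. The difference was 1.23 ± 0.61 (log2 ± SE), or 2.35-fold, and did not pass the test (limma adjusted p = 0.20); without tumour 2 it was 0.80. The other 4 probe sets of Itgb1 were dimmer, with signals of 1.0 to 337, and their differences ran from -0.41 to 1.09.

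The matrix genes named next, like the tumour 2 comparison itself, were chosen after their values were seen. Of 38 measured ligand genes, 12 peaked in tumour 2 and 13 in tumour 1. How often all genes peaked in each tumour was not counted, so these counts have no background to be set against. The median signal of the array was highest in tumour 1 (275.8) and lowest in tumour 2 (144.4). Tumour 2 was the highest for fibronectin (Fn1) at 12862, against 1486 to 9652 in the other tumours, for periostin (Postn) at 10430.4, against 484 to 1843, and for tenascin-C (Tnc) at 6552, against 463 to 1850.3. Tumour 2 also had the highest summed signal of 8 fibroblast markers, 60322, where the remaining tumours had 10524 to 41826 and muscles 32868 to 38682. Of these markers 0 were called higher in tumours and 1 lower, where 8.66% and 9.09% of all genes were. The sums of 7 mural (vessel wall) and 3 Schwann cell markers were highest in tumour 2 as well. They were 18786 and 3485, against 3618 to 10742 and 1105 to 2336 in the remaining tumours. Muscles had 14057 to 16271 and 1670 to 3930. The part of fibroblast, mural or Schwann cell content in the Itgb1 signal of tumour 2 was not tested.

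Among the fibronectin-binding alpha chains, Itga5, the classical fibronectin receptor chain, was dim, above the array median in 1 of 9 samples. It read 42.8, 135 and 579 at the lowest, median and highest tumour and 45.9, 31.9 and 38.5 in muscles 1 to 3. Tumour 2 lay among the muscles and the other 5 tumours above them, with tumour 1 the highest. The difference was 1.59 ± 0.62 (log2 ± SE), or 3.00-fold, and did not pass the test (limma adjusted p = 0.10). It was called without tumour 2, at an adjusted p of 0.032. The second Itga5 probe set differed by 1.10 ± 0.65, also uncalled, and ordered the tumours otherwise. On it tumour 4 was the highest, at 244.8, and tumour 2 (92.9) lay above all muscles (9.6 to 16.4). Tumours 5 and 6 (10.7 and 10.3) lay among the muscles. Itga4, which binds Vcam1 and fibronectin, was under the array median in all 9 samples on each of its 3 probe sets. The probe set of highest mean read 85.9, 113 and 146 in tumours 1 to 3, 17.7, 21.8 and 24.7 in tumours 4 to 6, and 48.8, 57.4 and 72.2 in muscles. No direction can be read from these dim signals, with a difference of -0.11 ± 0.56 (limma adjusted p = 0.93).

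Of the vitronectin-binding chains, Itgav was above the array median in all 9 samples. It read 972, 2173 and 5195 at the lowest, median and highest tumour and 2174, 1462 and 1552 in muscles 1 to 3. Tumours 2 and 3, at 4900 and 5195, stood above the other 4, which ran from 972 to 2195. The difference of 0.50 ± 0.48 (log2 ± SE) did not pass (limma adjusted p = 0.57). A dim probe set of Itgav was 2.83-fold higher with an adjusted p of 0.052 over all probe sets, and its remaining probe set differed by -0.13 ± 0.60. Itgb3, the beta chain of the vitronectin receptor of osteoclasts and platelets, was under the array median on every array. It read 9.9 to 76.4 in tumours and 33.4, 28.7 and 28.3 in muscles, with a difference of -0.14 ± 0.42 (limma adjusted p = 0.88).

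Itgb5, a beta partner of Itgav, varied least among the tumours. Its probe set of highest mean read 982, 1918 and 2222 at the lowest, median and highest tumour and 2679, 1391 and 1818 in muscles 1 to 3, with a difference of -0.10 ± 0.35 (log2 ± SE, limma adjusted p = 0.90). Its tumour SD of 0.42 on the log2 scale was larger than that of 14.7% of all genes. The 4 probe sets of Itgb5 did not give the same picture. On 1417534_at every tumour, from 398 to 1232, lay above every muscle, from 211 to 358. That probe set differed by 1.11 ± 0.41 and 1456195_x_at by 0.87 ± 0.33, with adjusted p over all probe sets of 0.082 and 0.10, while 1417533_a_at differed by 0.26 ± 0.36. The mean over the 4 probe sets gave a difference of 0.54, so the sign of the Itgb5 difference depends on which probe set is read.

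**Figure D3:**
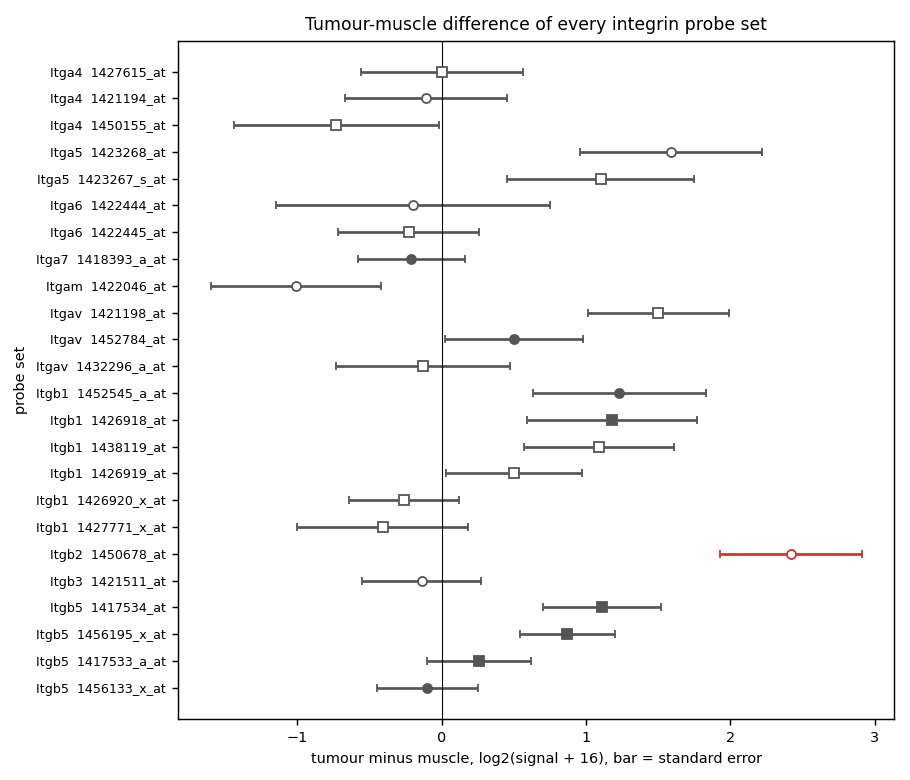
Difference between tumours and muscles, in log2(signal + 16), of all 24 integrin probe sets, with bars of 1 standard error. Circles mark the probe set of highest mean that stands for the gene and squares the others, filled symbols lie above the array median on all 9 arrays, and red marks the called probe set of Itgb2, at 2.42.

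Of the other integrin chains, 12 genes were measured, of which 1 was higher (Itgax), 1 lower (Itgb6) and 10 not called, with a median difference of 0.26 on the log2 scale. That is 2 of 12, against 17.8% of all genes; without muscle 3 the count was 1, Itgb6. Itgb6, the beta chain of the epithelial integrin that activates TGF-beta, read 11.5, 88.5 and 125 at the lowest, median and highest tumour and 483, 714 and 577 in muscles 1 to 3. All 3 muscles lay above all tumours, and the difference was -2.78 ± 0.52 (log2 ± SE), with a limma adjusted p of 0.0023. A second Itgb6 probe set, under the array median on all arrays, read 52.3 to 199 in tumours and 62.4 to 161 in muscles, with a difference of 0.14 ± 0.51. The fall of Itgb6 therefore rests on 1 of its 2 probe sets, and with their mean the difference was -1.32 (limma adjusted p = 0.043). Of 6 measured epithelial markers 2 were higher in tumours (Krt8 and Krt18), 0 lower and 4 not called, where 8.66% of all genes were called higher. Their sum was 3650 to 14364 in tumours and 628 to 1064 in muscles. Itga3, a laminin-binding chain, had signals of 286 to 2995 in tumours, with tumour 1 the highest, and 262 to 300.2 in muscles, and its difference of 1.49 ± 0.58 did not pass (limma adjusted p = 0.096). Its dimmer probe sets 1421997_s_at and 1460305_at differed by 0.16 ± 0.41 and 0.66 ± 0.54, also uncalled. Itgb7, a lymphocyte beta chain that pairs with Itga4 and Itgae, differed by 1.22 ± 0.57, also uncalled.

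Ligands of integrins went both ways. Of 38 measured ligand genes 3 were higher, 3 lower and 32 not called, with a median difference of 0.20 on the log2 scale, and 15.8% of them were called against 17.8% of all genes. The laminin chains Lama2 and Lamb2 and vitronectin (Vtn) fell by 1.67 ± 0.44, 1.66 ± 0.39 and 2.50 ± 0.62 (log2 ± SE). Lama2 had signals of 128 to 507 in tumours and 699, 742 and 1310.0 in muscles. Tgfb1, whose latent form is bound by Itgav integrins, rose by 2.61 ± 0.55, Tnc by 2.41 ± 0.66 and Npnt (nephronectin, a ligand of Itga8) by 2.10 ± 0.50. Tumours and muscles did not overlap for these genes except Npnt, where tumour 3 (271) lay below muscle 1 (311). When all probe sets of each gene were averaged, Vtn differed by -0.82 (limma adjusted p = 0.34) and Npnt by 1.05 (limma adjusted p = 0.067), so neither was called. Leaving out muscle 3 ended every one of these calls but that of Tgfb1. The counts depend on single arrays, with 10 ligands called without tumour 1, 2 without muscle 2 and 1, Tgfb1, without muscle 3. The split also depends on scale, with 12 higher and 1 lower without the rescaling. Vcam1 ranged from 191 in tumour 1 to 6302 in tumour 2 and 208 to 458 in muscles, and was not called (limma adjusted p = 0.072). The laminin chains Lamb1 and Lamc1, named after their values were seen, differed by 0.87 ± 0.45 and -1.27 ± 0.45. Neither was called (limma adjusted p = 0.22 and 0.069).

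Cytoplasmic proteins that link integrin tails to the cytoskeleton went both ways. Of 40 measured adaptor genes 7 were higher, 4 lower and 29 not called, which is 27.5% against 17.8% of all genes, with a median of 0.51 on the log2 scale. Itgb1bp2 (melusin, a muscle protein that binds the Itgb1 tail) had signals of 20.4 to 845 in tumours and 3855, 3979 and 4579 in muscles, and fell by 4.50 ± 0.80 (log2 ± SE, limma adjusted p = 0.0015). Tns1 (tensin-1) fell by 3.29 ± 0.57 and Lims2 (the LIM protein PINCH-2) by 1.98 ± 0.57. The Lims2 call was lost without tumour 3 and without each of the 3 muscles, at limma adjusted p of 0.051 to 0.11.

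The kindlins, which bind beta tails and activate integrins, moved in opposite directions. Fermt2, the widely expressed kindlin-2, read 769 to 3504 in tumours and 7231, 9753 and 13239 in muscles, and fell by 2.43 ± 0.46 (limma adjusted p = 0.0025). Fermt3, the kindlin of blood cells, read 167 to 797 in tumours and 68.2, 95.5 and 17.2 in muscles, and rose by 2.71 ± 0.54 (limma adjusted p = 0.0032). Groups did not overlap for either gene. With the mean of probe sets the differences of Fermt2 and Fermt3 were -1.61 and 1.42, both still called. Like Itgb2 and Itgax, Fermt3 rose alongside the macrophage markers given above, and their part in it was not tested.

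Among actin-linking proteins, Actn1 (a non-muscle alpha-actinin) rose by 2.54 ± 0.39, from 533 to 640 in muscles to 1817 to 6191 in tumours, and Flna (filamin A) by 2.28 ± 0.36. The kinase gene Ptk2b rose by 2.28 ± 0.59, though muscle 2 (139) lay above tumour 3 (112) and the call was lost without muscle 1 or muscle 3, at limma adjusted p of 0.067 and 0.13. The kinase gene Src, named after its values were seen, rose by 2.05 ± 0.34. Without muscle 3 the adaptor calls numbered 7, with 4 higher and 3 lower, and without the rescaling 15, with 12 higher and 3 lower. Tln1 (talin-1), Ilk (integrin-linked kinase) and Vcl (vinculin), central parts of the adhesion complex, differed by 0.73 ± 0.41, 0.69 ± 0.30 and 0.03 ± 0.45 and were not called; these 3 were named after their values were seen.

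Of 11 membrane proteins that associate with integrins 4 were higher, 0 lower and 7 not called, 36.4% against 17.8% of all genes, with a median of 0.77 on the log2 scale. Tspan4, a tetraspanin, read 618 to 1377 in tumours and 54.8, 30.9 and 64.6 in muscles, and rose by 3.76 ± 0.38 (log2 ± SE, limma adjusted p = 2.5e-05). The heparan sulphate proteoglycan Sdc4 (syndecan-4), which acts with integrins on fibronectin, rose by 3.44 ± 0.54, from 320 to 507 in muscles to 1197 to 10054 in tumours. The tetraspanins Cd9 and Cd82 rose by 3.21 ± 0.45 and 1.98 ± 0.32, and the call of Cd82 was lost with the mean of its probe sets (limma adjusted p = 0.15). For these 4 genes no tumour overlapped a muscle. The sums of the macrophage and the epithelial markers given above did not overlap between the groups either, and their part in the partner genes was not tested. Cd81 and Cd151, tetraspanins of the same kind, differed by 0.01 ± 0.44 and 0.23 ± 0.35 and were not called; both were named after their values were seen.

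**Figure D4:**
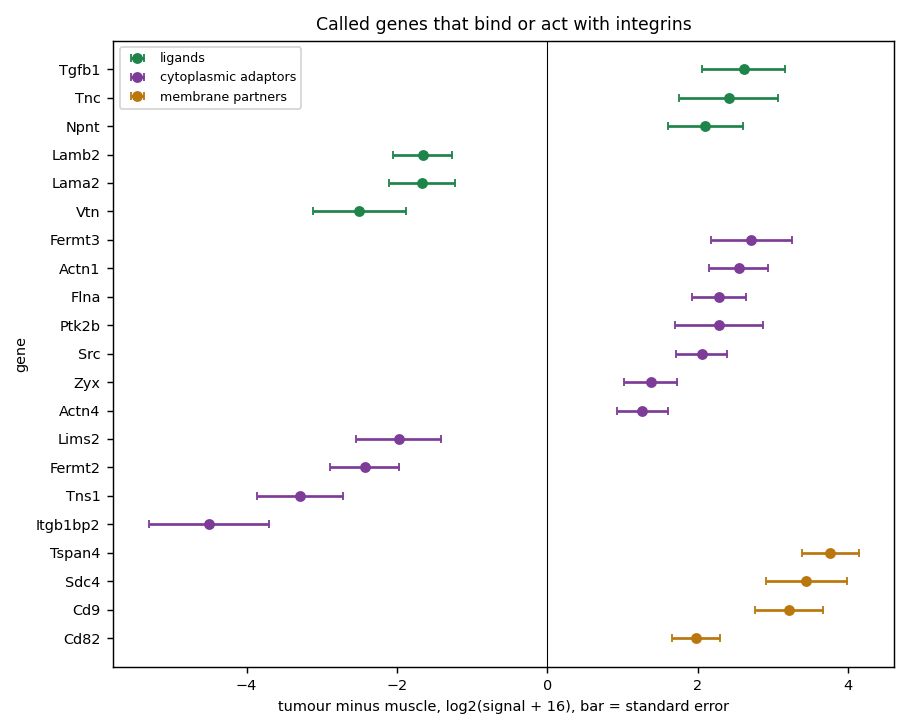
Difference between tumours and muscles, in log2(signal + 16), of the called ligands (green), cytoplasmic adaptors (purple) and membrane partners (orange) of integrins, with bars of 1 standard error. Ligands and adaptors lie on both sides of 0, from Itgb1bp2 at -4.50 to Fermt3 at 2.71, and the 4 membrane partners lie above 0, from 1.98 to 3.76.

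The genes whose profiles were most like those of the members were found by the root mean square difference of log2(signal + 16) profiles over the 9 arrays, each centred on its own mean. Itgb2 was nearest to Tgfbi at 0.34, Gpr31b at 0.46 and Tap1 at 0.48, where the median of all genes was 1.46. Itga5 was nearest to another integrin chain, Itga3, at 0.24, followed by Lgals3bp at 0.31 and Timd2 at 0.36, against a median of 1.19. Tumour 1 was the highest tumour on the probe sets of highest mean of Itga5 and Itga3, though not on the second Itga5 probe set. Itga7 was nearest to Ccdc115, Etf1 and Col4a1 at 0.18, 0.18 and 0.22, and Itgav to Eloc, Naa15 and Col6a1 at 0.25, 0.27 and 0.30. Itga6 had no profile nearer than 0.54 (Gle1), and Itgb1 was nearest to Nfat5 at 0.38. The nearest profiles to the dim members Itgam, Itga4 and Itgb3 were Ganc at 0.24, Cryba4 at 0.33 and Strada at 0.11, and to Itgb5 Gpx2 at 0.13. A small distance is easier to reach for a gene that varies little, so these distances are not comparable between members.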

How the data were processed

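Per the labels' protocols, RNA was purified by Trizol and RNAeasy and labelled by the standard Affymetrix procedure. The authors deposited linear signal intensities, which the submitters' processing notes attribute to MAS5. No source used here gives the scaling target, detection calls or scan dates, so a low signal can be background, and the number of arrays limits the precision.

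With 2% of values trimmed from either end, the array mean was 500.2 on 7 arrays, 294.3 on muscle 1 and 140.9 on muscle 3, and each array was multiplied to 500.2. After leaving out 64 control probe sets, 20380 of 22626 probe sets had 1 gene symbol, 691 several and 1555 none. Each of 12393 genes was represented by its probe set of highest mean log2 value over the 9 arrays. Probe sets of a gene can read different transcripts, and those ending in _x_at or _s_at can bind related ones.

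Tests used limma 3.58.1 in R 4.3.3 (lmFit, eBayes with trend) on log2(signal + 16), over all genes and separately over all 22626 probe sets, with Benjamini-Hochberg adjustment. Folds are on that offset scale and understate changes of dim genes. Tables were made with Python 3.11.15, numpy 2.4.6, scipy 1.17.1, pandas 2.3.3 and matplotlib 3.10.9. The members, gene lists, rescaling and alternatives were chosen with earlier results of these data known. Named were all members, called other chains, up to 4 called genes per direction in the ligand, adaptor and partner lists, and the 3 most alike genes per member. Of the macrophage and T cell markers, those of highest and lowest tumour median were named, which was not done for the other marker lists. Other markers, and genes so described in the text, were chosen after their values were seen. Alternatives were quantile normalization, median centring, no rescaling, offsets of 1 and 64, no dim genes, the mean of probe sets, no trend, a replicate block, leaving out tumours 1 and 4, and leaving out each array.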

Additional observations from a re-analysis of the deposited data

Results flagged for a closer look

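In each of 41 integrin probe sets, 17 of them from the 12 other chains, the 6 tumours were searched for 1 sample far from the rest, its gap to the nearest other tumour exceeding 0.625 of the group's range on the log2(signal + 16) scale. This was met 7 times. The limit of 0.625 is one that about 1 in 20 groups of independent, normally distributed values would pass. The 41 probe sets share the same 6 tumours and include several per gene, and the share over all probe sets was not counted. Whether 7 is more than usual is therefore not known. Among members, tumour 2 was far above the others on Itgb1 probe set 1426918_at (3573.2, others 357 to 851) and far below on Itgb5 probe set 1456133_x_at (981.7, others 1849.6 to 2222). Tumour 6 was low on the Itgb5 probe set 1456195_x_at (489.2, others 845 to 989), and tumour 1 high on the Itgav probe set 1432296_a_at (433.8, others 46.3 to 88.6). Among other chains, tumour 1 was high on Itga3 probe set 1460305_at (289.1, others 54.8 to 97.8), tumour 3 high on Itga9 probe set 1420860_at (82.5, others 12.0 to 23.5) and tumour 5 low on Itgb6 probe set 1422983_at (11.5, others 65.4 to 125). Tumour 2 was also the highest on the brightest Itgb1 probe set, though not far enough from the rest to meet this measure, while the low Itgb5 value of tumour 2 did not make it lowest on 1417534_at, where it read 602 against 398 in tumour 5.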

How the results depend on the processing

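Itgb2 was called under 19 of 20 alternatives, with differences of 1.96 to 3.03; the exception was tumours 1 to 3 against muscles 1 to 3 without a block, chosen after seeing the data (2.07, adjusted p = 0.064). Those 6 arrays gave 0 integrin genes by limma, with 1 (Itgb2) at an unadjusted p under 0.05, 1 other chain, 2 ligands, 7 adaptors and 1089 genes in all. Without rescaling there were 3 integrin genes (Itga5, Itgb1 and Itgb2), 8 integrin probe sets, 4 other chains and 13 ligands, and 2742 genes in all. Without tumours 1 and 4 there were 2 integrin genes, 3 integrin probe sets and 11 ligands, and 2881 genes in all. An offset of 1 gave 2 integrin probe sets, and leaving out dim genes 1 of the 3 other chains then left. Leaving out 1 array gave 1 to 2 integrin genes, 1 to 2 integrin probe sets, 1 to 3 other chains, 1 to 10 ligands, 7 to 14 adaptors and 1110 to 2769 genes in all, where 2200 were called; without muscle 2 and muscle 3 these were 1267 and 1110.

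Uncalled differences changed sign. Without rescaling Itga4 became 0.49, Itga6 0.62, Itga7 0.62, Itgb3 0.31 and Itgb5 0.75. Without tumours 1 and 4 Itga4 became 0.01 and Itga6 0.99, and the mean of probe sets made Itgb5 0.54. Leaving out 1 array moved Itga4 from -0.36 to 0.10, Itga6 from -0.88 to 0.51 and Itgb5 from -0.32 to 0.15. Without rescaling the larger muscle factors are absent, which raises every difference; otherwise the cause was not tested. Dim signals limit Itga4, Itga5, Itgam and Itgb3, which the filter on dim genes left out.

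Replicate numbers 1 to 3 occur in both groups. Deviations of same-numbered arrays from their group means correlated across genes at 0.228, 0.177 and -0.018. Arrays of different numbers correlated at -0.214 to 0.072. Tumours 1 and 2 correlated best with the muscle of their own number, and tumour 3 with muscle 2 (0.036). Whether same-numbered arrays belong together cannot be told from these values. With a replicate block on those 6 arrays 1467 genes were called, with 1 integrin gene (Itgb2, 2.07), 2 integrin probe sets and 4 ligands, while Itga4 became 0.78 and Itga7 0.23, as they also did on these arrays without the block.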
